A study of Caenorhabditis elegans with 2 samples.

Results

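The genes described here are 38 structural and marker genes of the intestine (17 genes) and of muscle (21 genes) in Caenorhabditis elegans, taken from a written list of symbols, all of which matched the WBcel235 annotation, out of 19973 nuclear protein-coding genes. They were examined in chromatin immunoprecipitation with sequencing (ChIP-seq) of MADF-8, whose MADF domain belongs to a family of domains that bind DNA. The worms were of strain RW12322, in which CRISPR inserted TY1, EGFP and 3xFLAG tags at madf-8 (allele st12322), so the tagged protein is made from its own gene. They were young adults 64 hours of age, grown after starvation of the first larval stage, and chromatin of whole animals was fragmented by sonication and recovered with an antibody against GFP. There were 2 biological replicates of this 1 group and no second condition, so nothing could be compared between conditions. The deposited lists are site calls, and the depth of the libraries is unknown. All coordinates are those of ce11 (WBcel235).

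In adult hermaphrodites the intestine makes the vitellogenins, the yolk proteins, and secretes them for uptake by oocytes through the receptor RME-2. The GATA factor ELT-2 binds TGATAA sequences at most intestinal genes. Muscle cells carry thick filaments of myosin and paramyosin, thin filaments of actin, tropomyosin and troponin, and attachments that run through integrin to the perlecan of the basement membrane. Because whole worms were used, a site present in few cells and a site occupied weakly in many cells cannot be told apart. Whether MADF-8 is present in intestine or muscle was not measured.

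No intestine or muscle gene of the list had a MADF-8 site at its promoter. A site is an interval that passed the authors' cut on the irreproducible discovery rate (IDR), a measure of how well ranked candidates repeat. A promoter was counted when a summit fell in the window around any annotated start of its protein-coding transcripts, reaching 500 bp upstream and 100 bp downstream. The count was 0 of 38 in the set made from both replicates, which allows a share of up to 7.89%, while 6.97% of all protein-coding genes (1392 of 19973) had a site. It was 0 of 17 for intestine and 0 of 21 for muscle, which allow shares of up to 17.6% and 14.3%. It was also 0 of 38 in the set of replicate 1 alone and in that of replicate 2 alone, where 5.24% and 6.04% of all genes had a site. In the companion set that the authors name conservative it was 0 of 38, with 6.92% of all genes. With windows reaching 1000 bp upstream and 200 bp downstream, or 200 bp and 100 bp, it was 0 against 8.82% and 3.56% of all genes. With 2000 bp and 500 bp it was 0, against 11.1% of all genes. With 5000 bp and 1000 bp it was 2 of 38 (deb-1, through a site inside the gene, and pat-3, 5.26%), against 16.8% of all genes. The limit of 7.89% lies above the share over all genes in the first window and in the narrower one, so there a share like that of all genes could also have given 0. It lies below the 8.82% and 11.1% of the wider windows. The upper end of the Wilson interval for the same 0 of 38 is 9.18%, above the 8.82% and below the 11.1%. For the window reaching 1000 bp upstream the reading therefore depends on the limit used. These limits, and the intervals given later, cover counting error only. The shares over all genes were not matched for chromosome, so no lower share in the list is concluded.

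The chromosomes of these genes differ from those of the genome as a whole. Chromosome X carried 15 of the 38 genes (39.5%) and 13.7% of all protein-coding genes. Sites are rare on X, where 0.769% of all genes had one at the promoter. The other 23 genes lie on autosomes, where the share over all genes was 7.95%. The X-linked genes are vit-1 to vit-5, elt-2, pept-1 and cpr-6 of the intestine, and myo-2, unc-27, tnt-2, mup-2, tni-1, unc-97 and unc-98 of muscle.

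In the set from both replicates the vitellogenin genes lay far from any site. Distances were taken from a gene's nearest transcript start to the nearest summit of the set from both replicates. They were 387 kb for vit-1, 78.2 kb for vit-2, 125 kb for vit-3, 134 kb for vit-4 and 294 kb for vit-5, all on X, where the median over all genes was 130 kb. These 5 distances depended on the set, with a range of 32.0 to 387 kb in the conservative set, 15.4 to 575 kb in that of replicate 1 and 260 to 888 kb in that of replicate 2. Their median was 134 kb in the set from both replicates, 125 kb in the conservative set, and 436 and 769 kb in the sets of replicates 1 and 2. For vit-6, on chromosome IV, the distance was 55.3 kb in all 4 sets, against a median of 17.4 kb over all autosomal genes in the set from both replicates. The 250 bases before each start are shown, sense strand, because all 6 carry the sequences known from vitellogenin promoters. Capitals mark TGATAA, the GATA site, and TGTCAAT, the other vitellogenin promoter element, on either strand.
vit-1 (chrX:7727639-7727888, plus strand): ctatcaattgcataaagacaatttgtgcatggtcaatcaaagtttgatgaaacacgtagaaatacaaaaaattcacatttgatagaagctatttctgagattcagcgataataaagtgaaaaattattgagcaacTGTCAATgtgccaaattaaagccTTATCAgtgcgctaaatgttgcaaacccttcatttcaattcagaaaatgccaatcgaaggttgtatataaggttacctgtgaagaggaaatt
vit-2 (chrX:5100792-5101041, plus strand): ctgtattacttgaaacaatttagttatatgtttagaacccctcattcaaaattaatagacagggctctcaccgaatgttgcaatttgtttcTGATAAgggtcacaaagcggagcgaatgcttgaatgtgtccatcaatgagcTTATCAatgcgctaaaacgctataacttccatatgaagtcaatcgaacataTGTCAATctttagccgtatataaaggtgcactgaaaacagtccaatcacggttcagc
vit-3 (chrX:3572550-3572799, minus strand): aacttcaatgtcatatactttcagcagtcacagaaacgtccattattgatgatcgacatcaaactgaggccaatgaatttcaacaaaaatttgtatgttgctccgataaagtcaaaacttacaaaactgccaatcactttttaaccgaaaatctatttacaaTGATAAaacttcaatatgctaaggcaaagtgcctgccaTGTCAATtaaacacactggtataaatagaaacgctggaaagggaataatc
vit-4 (chrX:3563966-3564215, minus strand): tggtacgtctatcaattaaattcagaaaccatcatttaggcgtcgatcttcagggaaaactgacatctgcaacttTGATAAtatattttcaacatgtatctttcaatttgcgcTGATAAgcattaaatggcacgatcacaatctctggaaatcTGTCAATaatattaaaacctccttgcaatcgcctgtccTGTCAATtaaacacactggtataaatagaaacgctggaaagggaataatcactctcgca
vit-5 (chrX:3403221-3403470, plus strand): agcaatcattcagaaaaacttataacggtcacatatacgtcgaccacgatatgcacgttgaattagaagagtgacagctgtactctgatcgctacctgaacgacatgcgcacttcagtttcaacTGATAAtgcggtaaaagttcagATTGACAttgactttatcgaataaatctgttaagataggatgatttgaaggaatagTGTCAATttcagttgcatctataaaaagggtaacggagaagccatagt
vit-6 (chrIV:8260907-8261156, plus strand): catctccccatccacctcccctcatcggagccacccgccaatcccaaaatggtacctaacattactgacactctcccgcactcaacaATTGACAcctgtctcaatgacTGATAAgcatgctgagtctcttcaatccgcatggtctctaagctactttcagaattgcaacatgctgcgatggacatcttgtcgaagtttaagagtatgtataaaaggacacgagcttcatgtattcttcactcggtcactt

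Both elements were found before all 6 vitellogenin genes, which lack a site. Searched on both strands of the same 250 bases, TGATAA was present at 15 of the 17 intestine genes (88.2%), at 4 of the 21 muscle genes (19%) and at 26.8% of all protein-coding genes. The intestine genes without it were ges-1 and asp-1. The muscle genes with it were deb-1, mup-2, unc-15 and unc-22. Genes with a MADF-8 site carried it in 20.2% of cases. TGTCAAT was present at the 6 vitellogenin genes and at no other gene of the list, and at 4.81% of all genes. The E box CANNTG, the sequence that MyoD-type factors bind, was present at 9 of 21 muscle genes (42.9%) and at 59.4% of all genes. Such matches are descriptions of sequence.

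Words that are frequent at MADF-8 promoter sites were absent from these promoters. The 3 words of 8 bases with the largest difference in share between promoter sites and unbound promoters were AAGGCGCA, AAAGGCGC and GCGAGACC, of which the first 2 overlap by 7 bases. They were present, on either strand, within 50 bp of the summit at 11.5%, 11.4% and 10.6% of the 1137 promoter sites, and in 0.528%, 0.484% and 0.22% of 2274 windows at unbound genes. In the window of 500 bp before and 100 bp after the gene start, none of the 38 genes held any of the 3 words, which allows a share of up to 7.89%. The share was 5.89% over all genes and 28.0% over genes with a site. The limit lies above the 5.89%, so a share like that of all genes could also have given 0. The words were chosen on the sites, so the share at genes with a site is no independent result.

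The yolk receptor gene rme-2, on chromosome IV, had a site, while the yolk genes had none. Of the yolk genes, vit-1 to vit-5 are on X, where 0.769% of all genes had a promoter site. In a list of 13 genes of yolk uptake and vitellogenin regulation, rme-2 and rme-1 had a promoter site (15.4%, against 6.97% of all genes). The rme-2 gene (IV, 5470026 to 5473174, plus strand) encodes the receptor by which oocytes take up yolk. Its summit lay 92 bp upstream of the start, with a signal of 590, a value the authors give per site, and 5.22% of all sites were stronger. The signal was 253 in replicate 1 and 334 in replicate 2, and both scored 1000, the top IDR score. The gene rme-1 (V, 6208885 to 6217664, plus strand) encodes a protein of endocytic recycling, and its site lay 65 bp upstream of an internal start, with a signal of 1072. The vitellogenin regulators ceh-60, unc-62, pqm-1 and mab-3 had no promoter site. The sequences within 50 bp of both summits are shown on the plus strand, because rme-1 has the strongest site of the related genes and rme-2 is the receptor of the yolk proteins. The ani-1 site, of a bound cytoskeletal gene described with the muscle genes, is on the minus strand. Capitals mark the words named above.
rme-1 (chrV:6214574-6214674): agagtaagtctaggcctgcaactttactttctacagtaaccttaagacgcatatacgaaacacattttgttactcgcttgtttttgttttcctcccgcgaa
rme-2 (chrIV:5469884-5469984): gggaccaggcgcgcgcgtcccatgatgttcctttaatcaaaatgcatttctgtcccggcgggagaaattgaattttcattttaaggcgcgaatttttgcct
ani-1 (chrIII:12453430-12453530): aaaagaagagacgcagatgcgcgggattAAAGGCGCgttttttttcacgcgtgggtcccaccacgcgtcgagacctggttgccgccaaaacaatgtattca
None of the 3 words is in the rme-1 and rme-2 windows, and AAAGGCGC is in that of ani-1.

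**Figure D1:**
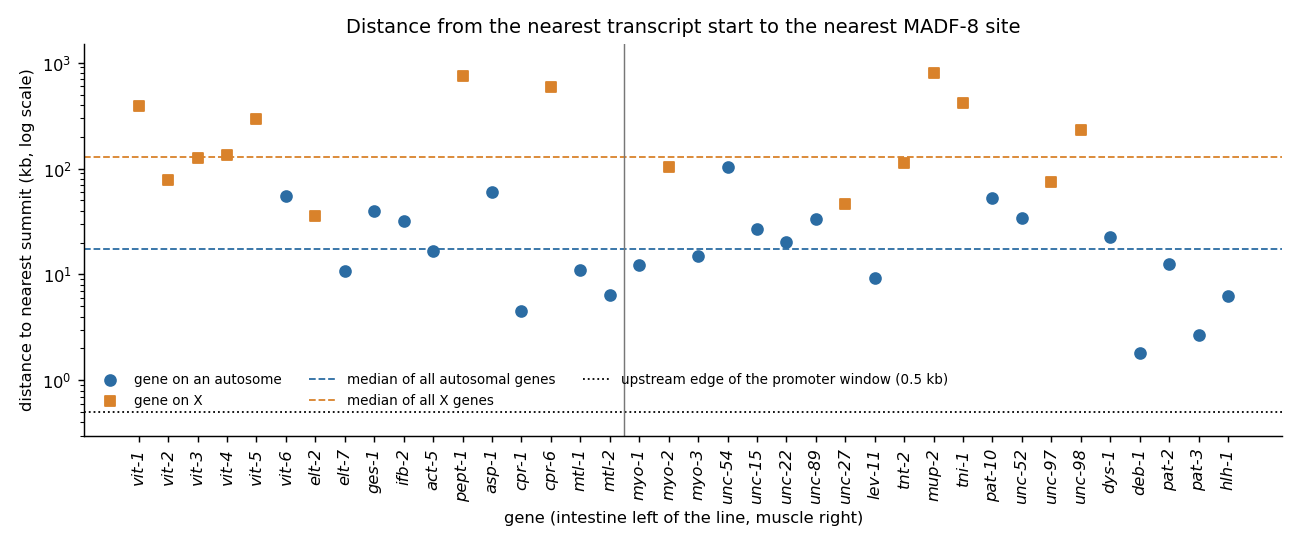
Distance in kb (log scale) from each gene's nearest transcript start to the nearest summit of the set from both replicates. Squares are genes on X, circles genes on autosomes, dashed lines the medians over all genes (17.4 kb on autosomes, 130 kb on X), and every gene lies above the 0.5 kb that the promoter window reaches upstream.

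Over the whole list the median distance to a summit was 37.7 kb, against 21.3 kb over all protein-coding genes. The 23 autosomal genes had a median of 16.5 kb, close to the 17.4 kb of all autosomal genes, and the 15 X-linked genes had one of 134 kb, close to the 130 kb of all X-linked genes. The closeness on X did not hold in the sets of single replicates. There the X-linked genes had medians of 385 kb (replicate 1) and 593 kb (replicate 2), against 225 and 218 kb over all X-linked genes. The autosomal genes had medians of 27.1 and 16.8 kb in those sets, against 24.3 and 19.9 kb over all autosomal genes. A summit lay within 5000 bp of a start at 3 of 38 genes (7.89%), cpr-1, deb-1 and pat-3, while 21.5% of all genes had one. Within 10000 bp the count was 6 (15.8%, against 32.4% of all genes), with hlh-1, lev-11 and mtl-2 added. It was 12 within 20 kb (31.6%, against 48.4%), 21 within 50 kb (55.3%, against 71.6%) and 26 within 100 kb (68.4%, against 85.4%). At each of these limits the share of the list was below that of all genes. These shares were not split by chromosome. The X chromosome, with 3.10 sites per Mb against 23.2 on autosomes, carries 39.5% of the list and 13.7% of all genes. The part of this in the lower shares was not tested.

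At cpr-1, pat-3 and deb-1 the nearest site lay upstream of the start of another gene, and deb-1 had a further site within 5000 bp, inside the gene, which is described with the sites inside genes. The site closest to cpr-1, for a cathepsin B-like protease, was 361 bp upstream of the start of snr-4, a gene for a spliceosomal Sm protein, and 4533 bp downstream of the cpr-1 start (V, 11979946 to 11980221, signal 154). The site closest to pat-3, the beta integrin gene, lay 137 bp upstream of the start of ccdc-47 and 2681 bp upstream of pat-3 (III, 3916692 to 3916967, signal 115). The site closest to a start of deb-1, the vinculin gene, lay beyond the 3' end of deb-1 and 293 bp upstream of the start of rps-4, a ribosomal protein gene (IV, 7084837 to 7085112, signal 126).

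The list of candidates below the threshold was examined next, since a weak site could be present without being kept. The ranked list of each replicate holds every candidate with an IDR score, of which 1000 is the top, 830 the lowest score kept in the thresholded sets, and 14 (replicate 1) or 16 (replicate 2) the lowest score given. Promoters of these genes held candidates about as often as those of other genes, but only weak ones. A candidate was present at 13 of 38 genes in replicate 1 (34.2%, against 31.9% of all genes) and at 13 of 38 in replicate 2 (34.2%, against 28.4%). It was present in both at 10 of 38 genes (26.3%, against 17.9%), and in the ranked list of the pair at 11 (28.9%, against 26.8%). At 7 of the 10 some candidates of the replicates overlapped (18.4% of 38, against 16.2% of all genes). The 10 genes have a median of 4.5 annotated starts and of 2156 bp in the promoter windows, against 1 start and 601 bp at the other 28. With the gene start alone, 3 of 38 genes had a candidate in both replicates (7.89%, against 15% of all genes).

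The best scores stayed below the 830 of sites in each replicate and in the ranked list of the pair. In replicate 1 the highest was 239 at unc-15, and in replicate 2 it was 184 at unc-89. Those were the only genes of the list to reach 100 in replicate 1 (10.4% of all genes did) or in replicate 2 (10.8% of all genes), and none reached it in both (7.20% of all genes). In these lists of single replicates a score of 200 was reached at unc-15 alone, where 8.19% of all genes reached it in replicate 1, 8.73% in replicate 2 and 6.36% in both. No gene of the list reached 400, where 6.68% of all genes did in replicate 1, 7.31% in replicate 2 and 5.63% in both. A score of 830 in both was reached by 4.61% of all genes and by none of the list. Among genes with a candidate, the median best score in replicate 1 was 38.0 for the list and 43.0 for all genes, and in replicate 2 it was 16 for the list and 53.0 for all genes. In replicate 2, 8 of the 13 genes with a candidate were at the lowest score (61.5%, against 32.6% over all genes with a candidate). Scores above the lowest in both replicates were seen at lev-11, unc-22 and unc-52 (7.89%, against 12.1% of all genes).

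**Figure D2:**
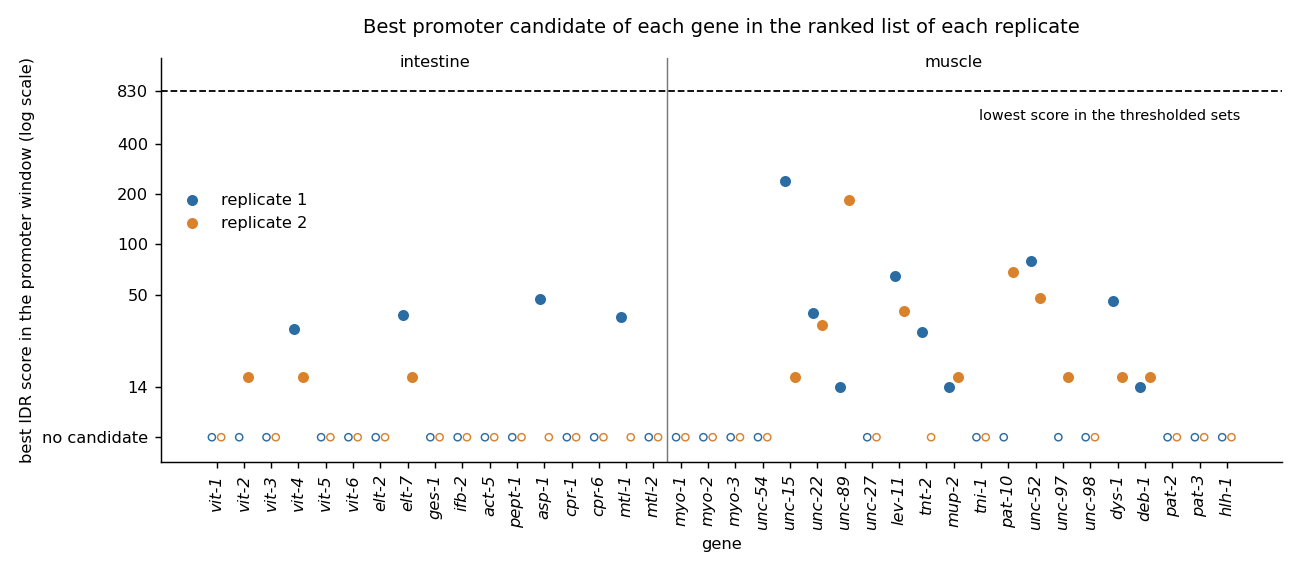
Best IDR score (log scale) of a candidate in the promoter window of each gene, in the ranked lists of replicate 1 and replicate 2. Open circles at the bottom stand for no candidate, and the dashed line for 830, the lowest score kept in the thresholded sets. The highest values are 239 at unc-15 and 184 at unc-89, each with the lowest score in the other replicate.

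Among intestine genes, a candidate in both replicates was seen at vit-4 and elt-7 only (2 of 17, 11.8%, against 17.9% of all genes). At vit-4 the score was 31 in replicate 1 (signal 22.5) and 16 in replicate 2 (signal 14.3), and the candidates overlapped, with summits 343 and 262 bp upstream of the start. At elt-7, for a GATA factor that acts beside ELT-2, it was 38 (signal 19.5) and 16 (signal 14.2), with summits 9 and 100 bp downstream of an internal start. Single-replicate candidates were seen at asp-1, for an aspartyl protease (score 47 in replicate 1), mtl-1, for a metallothionein (37 in replicate 1), and vit-2 (16 in replicate 2). In replicate 1 a candidate was thus present at 4 of 17 intestine genes (23.5%, against 31.9% of all genes). In replicate 2 it was present at 3 (17.6%, against 28.4%). The remaining 12 intestine genes had no promoter candidate in either list. They were vit-1, vit-3, vit-5, vit-6, elt-2, the esterase gene ges-1, the intermediate filament gene ifb-2, the microvillar actin gene act-5, the peptide transporter gene pept-1, the protease genes cpr-1 and cpr-6, and mtl-2.

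Near-identical copies limit what can be said of some yolk genes. Of the words of 31 bases in the vit-3 and vit-4 promoter windows, 83.0% and 82.7% occur once in the genome, while the share was 100% at 33 of the 38 genes. Over whole genes it was 19.5% for vit-3, 16.1% for vit-4 and 38.6% for vit-5. How the authors placed reads that match more than 1 copy is not given in the sources used here, and the part of this in the missing candidates was not tested. In the promoter windows of vit-1, vit-2 and vit-6 the share was 100%, and in that of vit-5 98.1%. Of these genes only vit-2 had a promoter candidate, in replicate 2 alone, while vit-4 had one in both replicates. The strongest vit-6 candidate in replicate 1 lay inside the gene near the start, and is described with the candidates inside genes.

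For the thick filament, the 4 myosin heavy chain genes had no promoter candidate in either replicate. Over all protein-coding genes a candidate was present at 31.9% in replicate 1 and 28.4% in replicate 2. Most genes thus lack one in each list, and 4 genes without one are no result about myosins. They are myo-1 and myo-2 of the pharynx and myo-3 and unc-54 of the body wall, and their nearest sites were 12.3, 103, 14.9 and 104 kb away. At unc-15, for paramyosin, the score was 239 in replicate 1 (signal 35.1) and 16 in replicate 2 (signal 15.8), and the best candidates lay at different starts. At unc-22, for twitchin, a giant kinase of the sarcomere, the scores were 39 (signal 24.5) and 33 (signal 12.9), at different starts. At unc-89, the obscurin gene, they were 14 and 184, again at different starts. At all 3 genes the best candidates of the replicates lay in different places.

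For the thin filament, lev-11, the tropomyosin gene, had scores of 65 and 40 at different starts, and the troponin T gene mup-2 had the lowest score of each list, 14 and 16. The troponin T gene tnt-2 had a candidate in replicate 1 alone (score 30), and the troponin C gene pat-10 in replicate 2 alone (score 68). The troponin I genes unc-27 and tni-1 had none. Of the attachment genes, unc-52, for perlecan, had overlapping candidates with scores of 80 (signal 16.8) and 48 (signal 15.3), and summits 187 and 367 bp upstream of a start. Scores were 46 and 16 at dys-1, for dystrophin, and 14 and 16 at deb-1, each pair at different starts. The PINCH gene unc-97 had a candidate of score 16 in replicate 2 alone. The integrin genes pat-2 and pat-3, the zinc finger gene unc-98 and hlh-1, the MyoD homologue of body-wall muscle, had none.

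Inside the genes, 1 site was found. The 38 genes span 302 kb, and the set from both replicates placed 1 summit in them, in deb-1 (2.63% of genes, against 2.59% of all genes), or 0.331 sites per 100 kb against 0.903 per 100 kb over all genes. This site (IV, 7090260 to 7090535) has its summit 3868 bp downstream of the deb-1 gene start (gene at 7085215 to 7094266, minus strand), in coding exon 7 of the 16 exons of transcript ZC477.9a.1. Its signal was 67.7, with 92.0% of sites stronger, and its score 926. Overlapping candidates scored 317 in replicate 1 (signal 31.1) and 685 in replicate 2 (signal 31.3). The site was missing from the conservative set and from both sets of a single replicate. The sequence within 50 bp of its summit is given on the sense strand, with that of the unc-52 candidate of replicate 1, the gene whose lower score over the replicates was the highest of the list, on its sense strand.
deb-1 (chrIV:7090348-7090448): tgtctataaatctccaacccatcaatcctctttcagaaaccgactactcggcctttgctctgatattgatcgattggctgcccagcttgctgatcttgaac
unc-52 candidate (chrII:14667080-14667180): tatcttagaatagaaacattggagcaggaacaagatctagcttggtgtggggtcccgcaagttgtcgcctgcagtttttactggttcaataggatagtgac
Neither holds any of the 3 words.

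**Figure D3:**
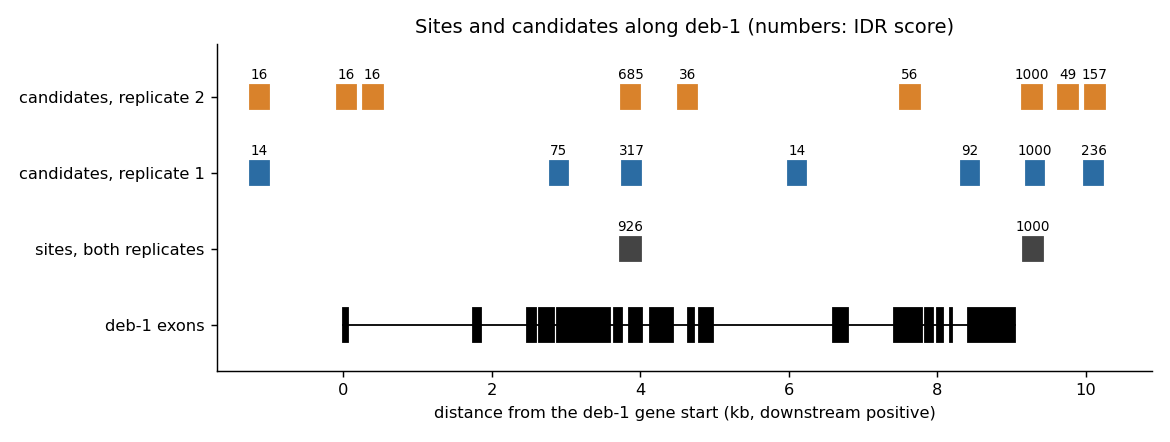
Exons of deb-1, sites of the set from both replicates, and candidates of each replicate, by distance in kb from the deb-1 gene start, with IDR scores above each interval. Only the interval in exon 7 is a site inside the gene, with scores of 926 in the set from both replicates, 317 in replicate 1 and 685 in replicate 2, and the site scoring 1000 lies beyond the gene's end.

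Weak candidates inside the genes were common, as they were in other genes. Replicate 1 had 164 of them in the 38 genes (54.2 per 100 kb, against 42.2 per 100 kb over all genes) and replicate 2 had 126 (41.7, against 33.0 per 100 kb). Of these, 37.8% and 46.0% overlapped a candidate of the other replicate, against 36.0% and 45.4% for candidates inside all genes. None reached 830 in its own replicate's list, against 1.24% (replicate 1) and 2.14% (replicate 2) of candidates inside all genes. The highest in replicate 2 was the deb-1 candidate of 685. The highest in replicate 1 was at vit-6 with 812 (8261437 to 8261686 on IV, signal 40.5), where the best candidate of replicate 2 scored 126 and lay elsewhere in the gene. The vit-6 gene starts at 8261157, so the candidate of 812 lies near the start but outside the promoter window. An overlapping candidate in the ranked list of the pair scored 630 (8261349 to 8261624, signal 64.5). The second highest gene in replicate 1 was unc-52 with 698, and its best in replicate 2 was 172. At elt-2 the best scores were 420 and 16, and at dys-1 228 and 426. The genes vit-3 and vit-4 had 0 and 1 candidates inside them in replicate 1, and likewise in replicate 2.

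The spacing and base content of these promoters are given beside those of genes with a site. The distance from the gene start to the next protein-coding gene upstream had a median of 2544 bp over the list, 552 bp over genes with a MADF-8 site and 938 bp over all genes. It was under 1000 bp at 8 of 38 genes (21.1%), at 75.1% of genes with a site and at 51.9% of all genes. In the window of 500 bp before and 100 bp after the gene start, the median G and C content was 39.0% in the list, 35.6% in genes with a site and 34.6% in all genes. The median number of CG dinucleotides in that window was 20, 26 and 18. These are descriptions, and no test was made of them.

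Other genes of the same tissues, and genes of related function outside them, were counted in the same way. The share over all protein-coding genes was 6.97%. Of 34 other intestine genes, among them further proteases, lysozymes and fatty acid desaturases, 0 had a promoter site, which allows a share of up to 8.82%. Of 37 other muscle genes 1 did (2.70%), act-2, for an actin (V, 11076777 to 11078154, minus strand). Its site lay 411 bp upstream of the start, with a signal of 278 and a score of 1000 in both replicates. Of 20 non-muscle actomyosin genes 3 did (15%). They were the anillin genes ani-1 and ani-2, which scaffold the contractile rings of dividing cells and the gonad, and the actin-capping gene cap-2. Their signals were 257, 355 and 193, each scored 1000 in both replicates, and the site at cap-2 lay nearer to the start of gmps-1. Non-muscle myosin genes nmy-1 and nmy-2 had none. Among other groups with few sites, 0 of 140 neuropeptide genes and 4 of 156 collagen genes (2.56%) had one. The 95% Wilson interval was 0 to 9.18% for the 38 genes, 5.24 to 36.0% for non-muscle actomyosin genes and 4.33 to 42.2% for yolk uptake. These intervals overlap, and no difference between lists was tested. On X were 9 of the 34 other intestine genes, 10 of the 37 other muscle genes and 1 of the 20 non-muscle actomyosin genes. So were 3 of the 13 yolk uptake genes, 34 of the 140 neuropeptide genes and 27 of the 156 collagen genes. The shares were not matched for chromosome.

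**Figure D4:**
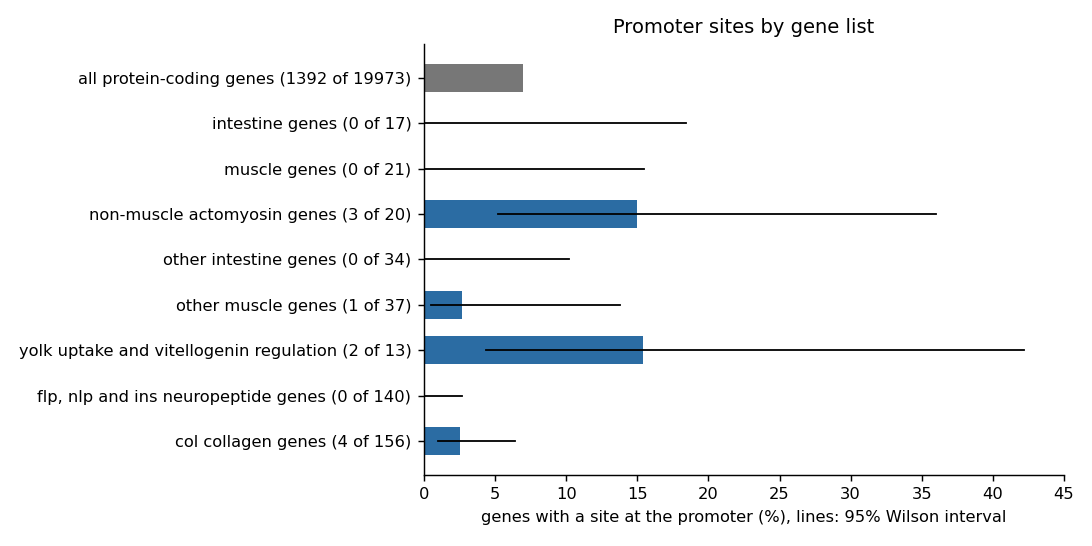
Percentage of genes with a site at the promoter in the set from both replicates, by list, with 95% Wilson intervals as lines and the counts beside each name. Intestine and muscle genes are at 0, other lists run from 0 to 15.4%, and the share over all genes is 6.97%.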

How the data were processed

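Lists of MADF-8 sites from 2 replicates of whole young adult worms were read as deposited, on assembly ce11. The score column, deposited by the authors, is the scaled IDR score. The signal column, deposited by the authors, has a scaling not given in the sources used here, and was used only to describe sites. By the −log10 global IDR values that the authors deposited for replicate 1, a score of 830 is an IDR of 0.00999. Summits were placed by the offsets deposited per site. Lists of a replicate were made from it and a control, and lists of the pair from both, per the labels and the text deposited with them. Depth is unknown, and no source names the aligner or caller. The 2 ranked lists of the pair hold 16 columns with no sample name, not used.

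Genes came from Ensembl release 115, and 12 mitochondrial genes were left out. All 38 symbols overlapped the RefSeq gene of the same name and assembly, which supplied the sequence. The members and lists were chosen with earlier results of these data known, so no set test and no p-value is given. TGTCAAT was searched as a known vitellogenin element. Named genes are the list, the gene nearest a site within 5000 bp, and bound genes of 4 related lists (104 symbols). The regulators and myosins without a site, and values inside genes, were named after being seen, as were the sequences of rme-2, ani-1 and deb-1. Window assignment, tested on simulated data with 200 planted sites over 19973 genes, placed all 110 sites planted in windows. Alternatives were other sets, windows, overlap and starts. Tables were read with pandas 2.3.3 and numpy 2.4.6 in Python 3.11.15, Wilson intervals taken from scipy 1.17.1, and figures drawn with matplotlib 3.10.9.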

Additional observations from a re-analysis of the deposited data

How the results depend on the processing

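The count of these genes with a promoter site was 0 under all 8 alternatives, namely the conservative set, replicate 1 or 2 alone, sites above the median signal, the wider and the narrower window, any overlap and the gene start alone. The share of all genes with a site, 6.97% in the report, was 4.13% with sites above the median signal, 8.82% with the wider window (1000 bp before, 200 bp after), 3.56% with the narrower one (200 bp, 100 bp) and 7.64% by any overlap. It ran from 5.24% to 6.04% with 1 replicate left out. The median distance to a summit, 37.7 kb in the report, was 43.2 kb in the conservative set, 75.2 kb with sites above the median signal, 49.7 kb with the gene start alone and 16.5 kb for autosomal genes only. It was 53.9 kb without replicate 1 and 53.9 kb without replicate 2. Taking a subset of sites or starts cannot shorten a distance, but the conservative and single-replicate sets are not subsets, and for those the cause was not tested. The 10 genes with a candidate in both replicates (26.3%, against 17.9% of all genes) became 4 with the narrower window. They became 3 with the gene start alone (7.89%, against 15%) and 0 at a score of at least 400 (against 5.63%). These settings use fewer or shorter windows or fewer candidates. The count stayed within 1.5 times in the other 4 alternatives (12 to 13 genes). It was 13 without replicate 1 and 13 without replicate 2 (34.2% each), against 28.4% and 31.9% of all genes. Where the reach of the window or the rule of assignment changed, no share over all genes was counted, so no comparison is possible. No paired analysis was possible because there is 1 group and no comparison between groups. The number of sites kept, and the unknown depth, limit what a missing site shows.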
